A study of Mus musculus with 12 samples.

Results

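The histone genes were taken as all genes whose name on the array began with Hist1h to Hist4h, H2af, H3f3 or H1f. They came to 64 of the 36406 gene names on the array, read by 77 of its 55681 probes. Clustered genes, those with a Hist name, made up 49 of the 64 and were read by 54 probes. The other 15, called variant genes here, were read by 23 probes and comprise the replacement histones and single-copy linker histones. A gene was tested where at least 1 of its probes stood well above background on all 4 arrays of at least 1 group, which left 60 genes: 47 clustered and 13 variant. The 4 genes not tested were Hist1h1d, Hist3h2bb-ps, H1fnt and H2afb1. Hist1h1d and Hist3h2bb-ps were well above background on none of the 12 arrays. H1fnt was above it on 1 WT array and H2afb1 on 3 WT arrays.

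The samples were mouse embryonic stem cells in 3 groups of 4, grown in GMEM medium with 15% serum and LIF. WT is the wild-type line, and Id1KO is a line labelled as a knockout of Id1, an inhibitor of helix-loop-helix transcription factors. Id1KO_Zrf1KD is the Id1KO line infected with lentiviral pLKO vectors for hairpins against Zrf1 and selected with puromycin, so it carries the same Id1 allele as Id1KO. Zrf1, listed on the array as Dnajc2, is a chaperone-type protein that also binds chromatin carrying ubiquitinated histone H2A. No group with a control hairpin was used here, so the effect of infection and selection cannot be told apart from that of the knockdown, and each genotype is 1 line. The series describes the 4 replicates of a group as independent biological samples.

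Histones package DNA into nucleosomes: a core of H2A, H2B, H3 and H4, with linker histone H1 between cores. The clustered genes lie in groups on a few chromosomes, have no introns as a rule, and are copied mostly in S phase, when new DNA must be packaged. Their mRNA usually ends in a short stem-loop in place of a poly(A) tail. The stem-loop binding protein Slbp holds it during processing and translation. Variant genes such as H2afz or H3f3a are spread through the genome, give polyadenylated mRNA and are used through the whole cell cycle. The labelling here began from 100 ng of total RNA with an oligo-dT primer, which copies RNA from a poly(A) stretch. Signal of a clustered gene therefore need not follow its total mRNA, and which share of its mRNA was copied was not tested.

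Levels are given on a log2 scale on which 0 is the 75th percentile of the processed signals of the same array. The 75th percentile itself was 440.7 to 550.2 on the WT arrays and 393.3 to 491.8 on those of Id1KO. On the Id1KO_Zrf1KD arrays it was higher than on any other, at 554 to 596.5. Results that turn with the scaling are named as such. Dnajc2 stood at 2.0 ± 0.12 in the WT group and 1.89 ± 0.11 in Id1KO (SD, n = 4 each). With the hairpins it stood at −0.27 ± 0.08, a 4.47-fold fall on knockdown. The Id1 probe was well above background on all arrays, with 0.86 ± 0.2 for WT and 1.23 ± 0.31 for Id1KO (adjusted p = 0.052, limma). It passed as higher in Id1KO with quantile normalization (adjusted p = 0.043), normexp (0.048) and the deposited values (0.025). No source used here says whether the probe lies in the deleted part of the gene, so it does not check the label, and Id1KO means the group labelled so. The stem cell markers Pou5f1, Nanog and Sox2 were well above background on all arrays. Of 12 such markers 5 were higher and 5 lower in Id1KO, and 6 higher and 4 lower on knockdown. Over all genes tested 42.5% were higher and 29.6% lower in Id1KO, and 32.3% were higher and 39.8% lower on knockdown.

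The probes of histone genes fall in different places of the mRNA, and 8 of the 54 clustered probes cover the stem-loop. The search was for GGCNCTTNTNAGNGCC on the mRNA strand, with at least 10 of its 16 letters inside the probe. It matched 18 of the 55681 probes of the array (0.032%), and no probe of a variant gene. The 8 windows are shown because these probes read the end that clustered histone mRNA is known for; they are 5′ to 3′ with the stem-loop in capitals, and the coordinates are those of mm9 in the files.
Hist1h2ab (chr13:23843434-23843451, plus strand, the probe ends inside the stem-loop): aaacaaaGGCTCTTTTCA
Hist1h2ae (chr13:23662530-23662548, minus strand, the probe starts inside it): CTTTTCAGAGCCattcact
Hist1h3a (chr13:23853756-23853781, minus strand): aaccaaaGGCTCTTTTCAGAGCCaca
Hist1h3g (chr13:23627751-23627778, plus strand): ctttaaaGGCTCTTCTTAGAGCCaccca
Hist1h3i (chr13:21874784-21874811, minus strand): aacaaaaGGCTCTTTTCAGAGCCccctc
Hist1h4m (chr13:21903991-21904019, plus strand): aactaaaGGCCCTTTTCAGGGCCatccaa
Hist2h2aa1 (chr3:96049949-96049977, plus strand): taaaaaGGCTCTTTTCAGAGCCacccact
Hist2h2bb (chr3:96074087-96074115, plus strand): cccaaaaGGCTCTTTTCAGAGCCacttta

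Several H2A probes lie elsewhere, over the end of the coding sequence, where the genes are nearly alike. A set of 4 such probes, each 60 bases, is shown with the run of 29 bases that all 4 hold in capitals. The 3 clustered ones end with a stop codon, and the fourth is the brighter probe of the variant gene H2afj.
Hist1h2af (chr13:23626113-23626172, plus strand): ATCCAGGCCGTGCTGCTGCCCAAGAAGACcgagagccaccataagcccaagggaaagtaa
Hist2h2aa2 (chr3:96049837-96049896, plus strand): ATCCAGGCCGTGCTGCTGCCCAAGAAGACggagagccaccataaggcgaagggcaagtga
Hist2h2ac (chr3:96024378-96024437, minus strand): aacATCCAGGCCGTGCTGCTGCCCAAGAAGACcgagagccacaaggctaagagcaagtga
H2afj (chr6:136757181-136757240, plus strand): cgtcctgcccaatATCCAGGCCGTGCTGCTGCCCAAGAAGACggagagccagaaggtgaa
A run of 20 or more identical bases was shared with another histone gene by 17 of the 77 probes, the longest being 42 bases, and 15 of the 51 clustered probes tested list 2 to 4 RefSeq mRNAs. Signal on these probes can come from several genes, and their values are given under the name the array carries.

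Clustered histone genes were higher in Id1KO than in WT almost throughout. Of the 47 tested, 41 were higher, 2 lower and 4 did not pass the test (limma, Benjamini-Hochberg over all 22593 features, adjusted p under 0.05), and 30 were higher by at least 2-fold. Among all features 42.5% were higher and 29.6% lower, and 2752 of the 22593 were higher by at least 2-fold. The median change of the clustered genes was 1.18 on the log2 scale, against 0.15 for all features; with quantile normalization these were 0.95 and 0.02. The median clustered gene stood at 1.25 to 1.37 on the 4 WT arrays and at 2.85 to 3.03 on the 4 Id1KO arrays. These are bulk samples, so more cells copying histone genes and more histone mRNA per cell cannot be told apart. Nor can either be told apart from a change in the share of the mRNA that the oligo-dT primer copied.

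**Figure D1:**
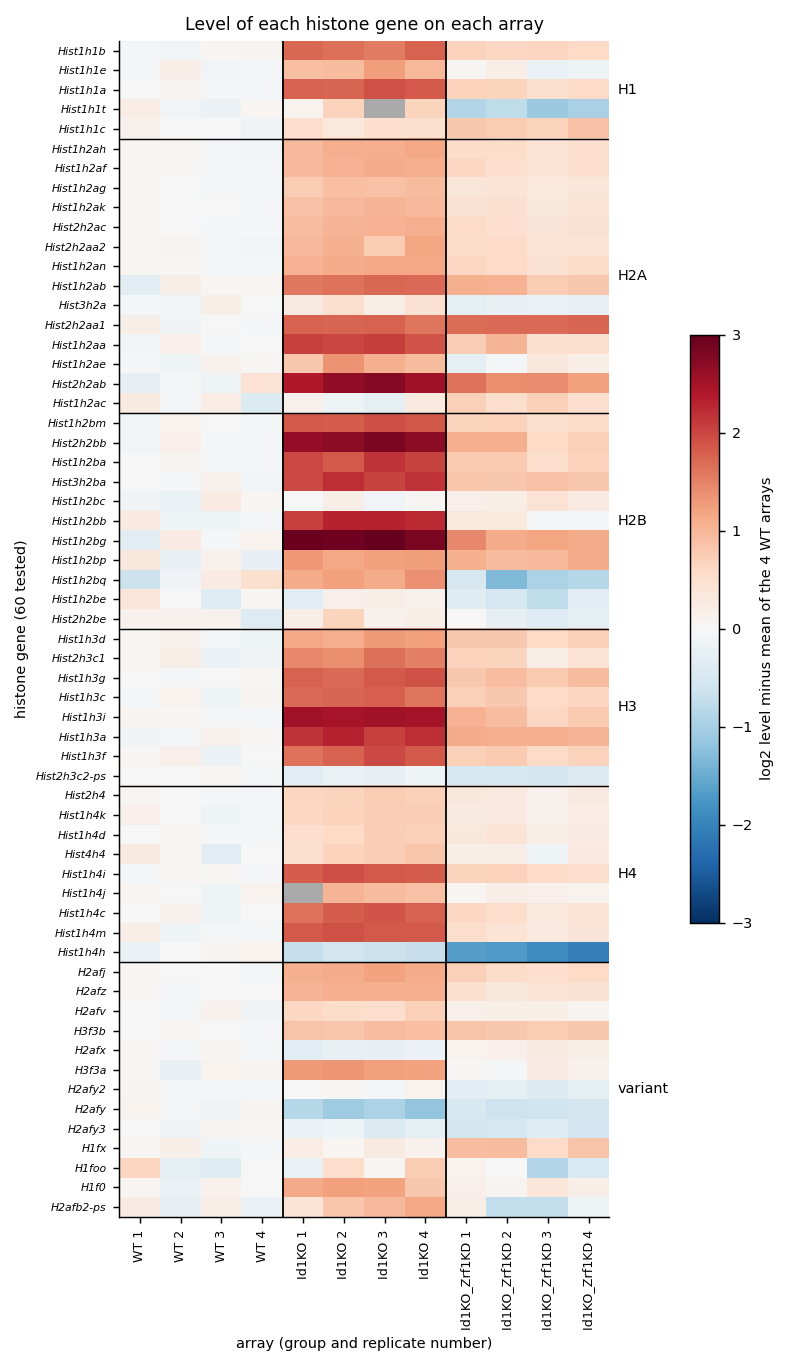
Heat map of the 60 tested histone genes (rows, grouped by type) on the 12 arrays (columns); colour is the log2 level minus the gene's mean over the 4 WT arrays, and grey cells are spots left out as outliers. Most clustered rows are red on the 4 Id1KO arrays and paler on the 4 Id1KO_Zrf1KD arrays, while Hist1h4h turns blue in both.

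H2B genes held the 2 largest rises in the main and quantile scalings; with normexp and the deposited values Hist2h2bb led and the H3 gene Hist1h3i came next. Hist1h2bg, a core H2B gene of chromosome 13, read −3.97, −3.41, −3.72 and −3.56 on the WT arrays and −0.71, −0.74, −0.63 and −0.84 on the Id1KO arrays. The groups lie far apart, and the change was 7.64-fold (log2 2.93 ± 0.12 SE, adjusted p = 2.2e-09). With normexp background correction it was 1.84 on the log2 scale and with the deposited values 1.81. Hist2h2bb, the H2B gene of chromosome 3 whose stem-loop is shown above, read 2.71 to 2.94 in WT and 5.42 to 5.61 in Id1KO, a 6.55-fold rise (adjusted p = 2.6e-09). Hist1h2bb rose 4.69-fold (log2 2.23, but 1.47 with normexp and 1.44 with the deposited values) and Hist1h2ba, a testis form of H2B, 4.03-fold. Of 11 H2B genes 8 were higher, with a median of 1.86. The 3 that did not pass were Hist1h2bc, Hist1h2be and Hist2h2be, with log2 changes of 0.03 ± 0.1, 0.03 ± 0.17 and 0.3 ± 0.15 (SE).

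H3 genes followed closely. Of 8, 7 were higher, and their median was 1.76. Hist1h3i read −0.24 to −0.1 in WT and 2.29 to 2.34 in Id1KO, with a spread of 0.02 (SD) over the Id1KO arrays and a 5.63-fold rise (adjusted p = 5.2e-10). The 1 lower gene was Hist2h3c2-ps, listed as a pseudogene, at −0.24 ± 0.05 (SE, adjusted p = 0.0018), whose probe has no genome position in the files.

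Among the linker H1 genes 5 of 5 were higher. Hist1h1a rose most: it read 2.44 to 2.57 in WT and 4.24 to 4.41 in Id1KO, 3.53-fold higher. Hist1h1c, whose probe lies far downstream in its transcript, rose least of those without a doubtful spot, by 1.36-fold (0.44 ± 0.07 SE). Hist1h1t, a testis H1, was 1.4-fold higher (adjusted p = 0.017) with the flagged spot of Id1KO replicate 3 left out, and −0.21 on the log2 scale with it kept (adjusted p = 0.74). Without Id1KO replicate 2 or replicate 4 it also missed the threshold, at log2 0.39 and 0.4.

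Most H2A genes rose, with a median below those of H2B and H3. Of 14, 13 were higher, with a median of 1.05. Hist2h2ab rose 5.96-fold from a dim signal (−4.77 to −4.08 in WT, −2.12 to −1.8 in Id1KO), well above background on 3 of the 4 WT arrays. That log2 change of 2.58 was 1.22 with normexp and 0.97 with the deposited values. Hist1h2aa, a testis form of H2A, rose 4.0-fold. The bright probes over the end of the coding sequence moved in step: Hist1h2af read 9.06 to 9.2 in WT and 10.1 to 10.25 in Id1KO, and Hist2h2ac 8.81 to 8.92 and 9.78 to 9.93. Their rises of 2.09-fold and 2.02-fold depend on scaling. With quantile normalization between arrays the median of the 14 H2A genes was 0.52, and with the authors' deposited values 0.55, though 13 remained higher under both. Hist1h2ac was level, at 0.0 ± 0.16 (SE), and stood above background on 1 of the 4 Id1KO arrays.

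Of 9 H4 genes 8 were higher and 1 lower, with a median of 0.7. Hist1h4m rose 3.63-fold, from 0.25 to 0.57 in WT to 2.22 to 2.29 in Id1KO. Hist1h4h fell: its arrays read −1.37, −1.19, −1.08 and −1.06 in WT and −1.87, −1.72, −1.81 and −1.87 in Id1KO. The groups do not overlap, and the change was −0.64 ± 0.09 (SE, adjusted p = 8.7e-05). It was lower under each of the 4 scalings tried, at −0.42 to −0.78.

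**Figure D2:**
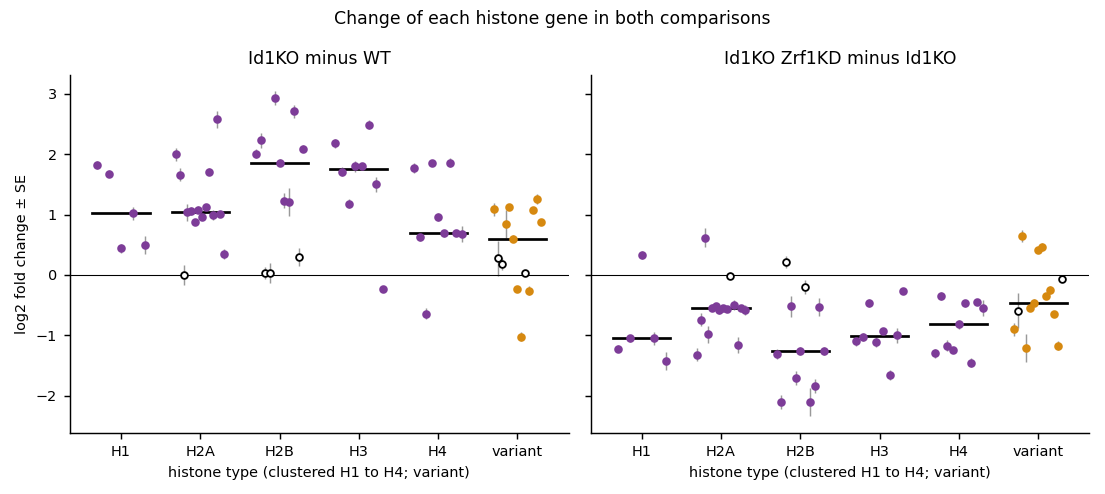
Log2 fold change (± SE) of each tested histone gene, by type, in Id1KO minus WT (left) and Id1KO_Zrf1KD minus Id1KO (right); filled points passed the test, open points did not, and bars are medians. H2B and H3 have the highest medians on the left (1.86 and 1.76), and H2B the lowest on the right (−1.26); both panels use the same 4 Id1KO arrays.

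Variant genes were divided between rises and falls. Of 13 tested, 7 were higher and 3 lower in Id1KO, with a median of 0.6, shares near those over all features (42.5% higher, 29.6% lower). Both genes for the replacement histone H3.3, which encode 1 protein sequence and supply H3 outside replication, rose. H3f3a read 5.13, 4.86, 5.19 and 5.17 in WT and 6.37, 6.41, 6.31 and 6.3 in Id1KO, 2.39-fold higher (adjusted p = 9.8e-08). H3f3b read 6.04 to 6.12 in WT and 6.91 to 7.0 in Id1KO, 1.84-fold higher. H2afz, which encodes the H2A.Z found at promoters, read 7.71 to 7.77 and 8.77 to 8.84 on the same groups, 2.11-fold higher. Its sister gene H2afv rose 1.52-fold by its brighter probe, while the dimmer probe gave −0.2 on the log2 scale (adjusted p = 0.11). H2afj, an H2A variant, rose 2.18-fold, and the linker histone H1f0, known from differentiated cells, 2.13-fold. The rises of these 6 variants were smaller with the deposited values. They were then 1.85-fold for H3f3a, 1.4-fold for H3f3b and 1.43-fold for H2afz. For H2afv, H2afj and H1f0 they were 1.16-fold, 1.58-fold and 1.42-fold. H2afb2-ps rose 1.8-fold by the same test, but missed the threshold with the deposited values (log2 0.13, adjusted p = 0.05).

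The lower variants included H2afy, which encodes a macroH2A, the large H2A variant known from silenced chromatin such as the inactive X chromosome. H2afy read 2.93, 2.76, 2.72 and 2.91 in WT and 1.97, 1.77, 1.87 and 1.65 in Id1KO, a 2.02-fold fall (adjusted p = 2.9e-07). All 3 of its probes fell. H2afy2, the other macroH2A gene, was at 0.03 ± 0.05 (SE). H2afx, whose protein is phosphorylated at DNA breaks, was lower by 1.18-fold (−0.24 ± 0.05 SE, adjusted p = 0.0011), and H2afy3 by 1.2-fold. H1fx and the oocyte linker histone gene H1foo did not pass, at 0.18 ± 0.1 and 0.28 ± 0.29 (SE).

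Most clustered genes were lower again in Id1KO_Zrf1KD than in Id1KO. Of 47, 42 were lower, 2 higher and 3 did not pass, and 21 were lower by at least 2-fold. Among all features 39.8% were lower and 32.3% higher, and 2978 of the 22593 were lower by at least 2-fold. The median change was −0.93, against −0.09 for all features. Both comparisons use the same 4 Id1KO arrays. The median clustered gene read 1.86 to 1.94 on the Id1KO_Zrf1KD arrays. All 3 groups were present on each of the 3 slides, and the median within a slide was −0.9, −0.79 and −0.9. Markers of other cells moved in the same comparison: 14 of 14 fibroblast markers and 14 of 14 endoderm markers were higher after knockdown. The summed fibroblast signal, in multiples of the 75th percentile, was 51.2 to 53.2 for WT, 39.2 to 41 for Id1KO and 143 to 147 after knockdown. For endoderm the sums were 220 to 233, 124 to 130 and 400 to 413, and no marker of either list failed the limit on dim probes. The part of such cells in the histone results was not tested.

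The size of this fall depended on how bright the probe was and on the scaling. With quantile normalization 29 of the 47 were lower, and with the deposited values 29. The 13 clustered genes with a mean level of 6 or more, a limit set with the values known, had a median of −0.54 and 13 lower in the main scaling. With quantile normalization they had a median of 0.0 and 2 lower, Hist1h1b and Hist1h2ab. The remaining 34 genes gave 29 lower in the main scaling and 27 with quantile normalization. The H2A genes, several of them read by bright coding probes, were 12 of 14 lower in the main scaling and 5 of 14 with quantile normalization. The rise of the 13 bright genes in Id1KO was smaller with quantile normalization (median 1.01 and 0.47), with 13 called under both.

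**Figure D3:**
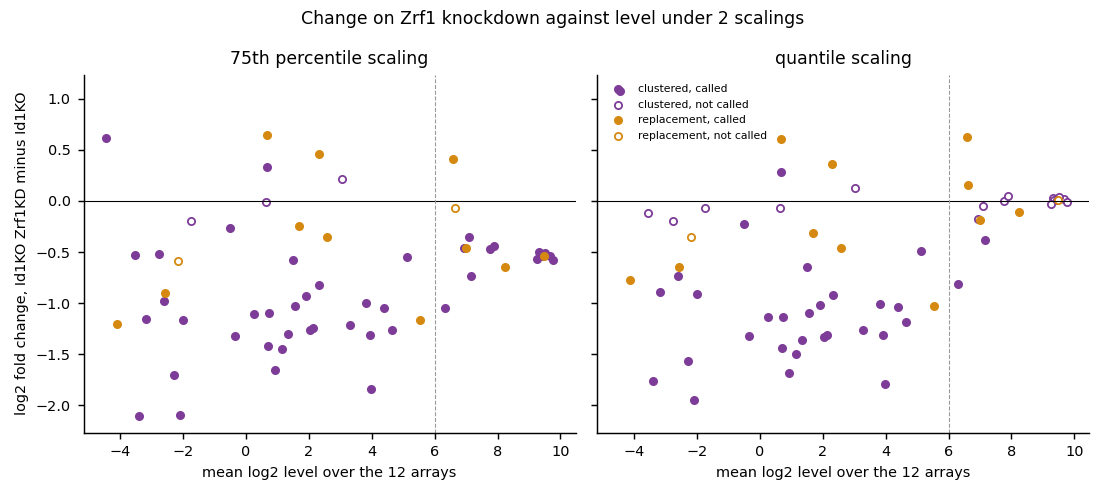
Log2 fold change in Id1KO_Zrf1KD minus Id1KO of each tested histone gene against its mean log2 level over the 12 arrays, with 75th percentile scaling (left) and quantile scaling (right); filled points passed the test and the dashed line marks a level of 6. Right of the line most clustered genes lie below 0 in the left panel and near 0 in the right panel; left of it the genes are spread alike in both.

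The H2B genes led here too. Hist1h2bq, well above background on 3 of the 4 knockdown arrays, read −2.37 to −2.12 in Id1KO and −4.81 to −3.98 in Id1KO_Zrf1KD, 4.31-fold lower (log2 −2.11, adjusted p = 8.2e-06). With normexp this was −0.98 and with the deposited values −0.66, where Hist2h2bb gave −1.78 and −1.76. Hist1h2bb read −0.82 to −0.55 and then −2.94 to −2.55, a log2 change of −2.1, with −1.43 and −1.36 under the same alternatives. Hist2h2bb read 5.42, 5.48, 5.61 and 5.48 in Id1KO and 3.89, 3.85, 3.39 and 3.51 in Id1KO_Zrf1KD, 3.58-fold lower (−1.84 ± 0.11 SE, adjusted p = 6.3e-08), and Hist1h2bg 3.28-fold. In all 9 of 11 H2B genes were lower, with a median of −1.26. Their lowest and highest changes were −2.11 and 0.22.

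At least 2-fold lower were 4 H1, 4 H3, 4 H4 and 2 H2A genes. Hist1h3i read 0.43 to 0.86 after knockdown against 2.29 to 2.34, 3.16-fold lower, in a group where 8 of 8 H3 genes were lower. Hist1h4m read 0.68 to 0.91 against 2.22 to 2.29, 2.74-fold lower, and 9 of 9 H4 genes were lower. With quantile normalization 7 of 8 H3 and 6 of 9 H4 genes were lower, and the deposited values gave the same counts. Hist1h4h fell once more, to −3.21 to −2.83, which is 2.25-fold below Id1KO (1.45-fold with the deposited values). Hist1h2aa fell 2.5-fold. Among the H1 genes Hist1h1t was 2.68-fold lower, which was lost with the flagged spot kept (adjusted p = 0.25), and Hist1h1a 2.32-fold.

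Hist1h1c and Hist1h2ac were the 2 higher clustered genes. Hist1h1c rose from 0.58 to 0.76 in Id1KO to 0.92 to 1.14, by 1.26-fold (adjusted p = 0.0011). Hist1h2ac rose 1.53-fold from signals at the background, and with normexp background correction its change was −0.04 (adjusted p = 0.69). Hist2h2aa1, picked out after its values were seen, kept its Id1KO level: its WT arrays read −0.6 to −0.32, its Id1KO arrays 1.11 to 1.27 and its knockdown arrays 1.18 to 1.26. Its change on knockdown was −0.01 ± 0.06 (SE), and −0.07 to 0.03 over the 4 scalings. The Hist2h2aa2 probe shown above lies just before this probe on the same strand of chromosome 3. In the main scaling the Hist2h2aa2 probe changed by −0.5 ± 0.08 on knockdown (SE, adjusted p = 0.00024, limma). With quantile normalization it did not pass. Part of its sequence is shared with other H2A genes, and the cause of the difference between the 2 probes was not tested.

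**Figure D4:**
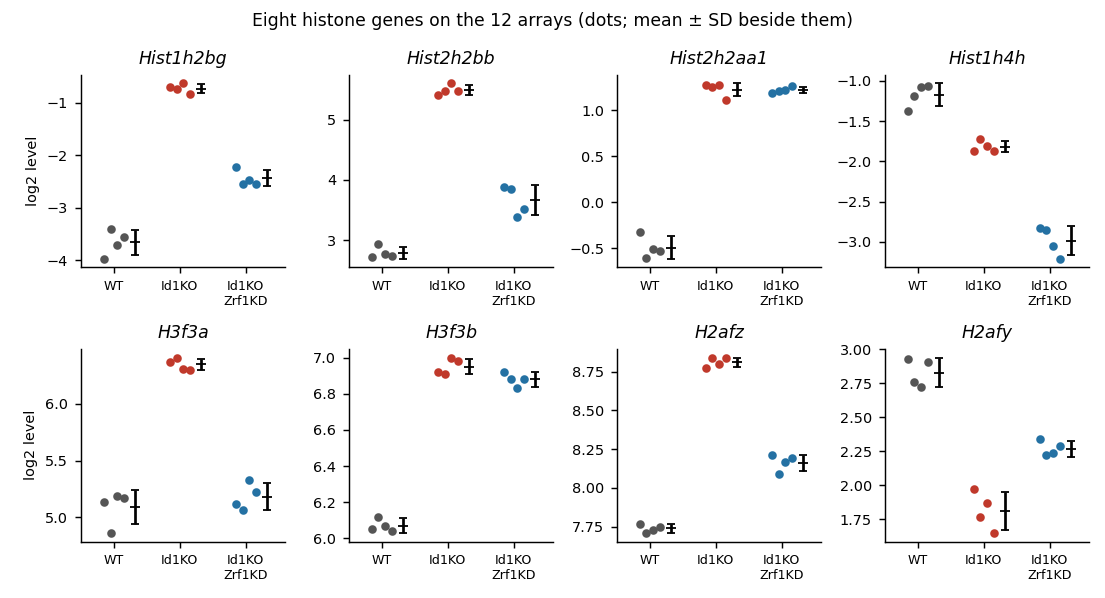
Log2 level of 8 histone genes on the 12 arrays, each dot 1 array, with the mean ± SD (n = 4) beside each group; the axes differ between panels and do not start at 0. H3f3a falls in Id1KO_Zrf1KD to 5.06 to 5.33, near its WT arrays, while H3f3b stays near its Id1KO level by the probe shown, and Hist2h2aa1 stays high while Hist2h2bb falls.

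The variant genes again differed among themselves: 8 of 13 were lower, 3 higher and 2 did not pass, with a median of −0.46, where 39.8% of all features were lower and 32.3% higher. With the slide as a block 10 were lower. By their brightest probes the 2 genes for H3.3 parted. H3f3a read 5.12, 5.06, 5.33 and 5.22 after knockdown, 2.24-fold below Id1KO (−1.17 ± 0.08 SE, adjusted p = 2.1e-07), and both of its probes gave the same size, −1.17 and −1.18. H3f3b read 6.83 to 6.92, a change of −0.07 ± 0.04 (SE, adjusted p = 0.11). That is the brightest of its 3 probes, which differed among themselves against WT, as given below. For H3f3b the sign turned with scaling. Quantile normalization gave 0.16 (adjusted p = 0.025), and the authors' deposited values 0.2 (adjusted p = 0.0071). H3f3a was lower under each scaling tried, by 0.98 to 1.17 on the log2 scale.

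H2afz fell by 1.57-fold (−0.65 ± 0.04 SE) to 8.09 to 8.21, above its WT range, but with quantile normalization by 1.08-fold. H2afv fell 1.37-fold and H1f0 1.87-fold, to −2.91 to −2.63. With the deposited values these falls were 1.13-fold and 1.3-fold. H2afb2-ps was lower by 2.31-fold (adjusted p = 0.00062) with 2 of 4 Id1KO_Zrf1KD arrays above background, and by 1.13-fold with the deposited values. H2afj gave −0.54 by its brighter probe over coding sequence shared with clustered H2A genes, and 0.01 with quantile normalization (adjusted p = 0.86). Its other probe, further downstream at chr6:136758433-136758492, read 0.83 to 1.0 in Id1KO and −0.45 to −0.24 after knockdown, a change of −1.25 ± 0.08 (SE). Against WT the brighter probe was higher after knockdown (0.59) and the downstream one lower (−0.5), each past the threshold.

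The higher variants were H1fx, H2afy and H2afx. H1fx, a linker histone, read 0.91 to 1.3 against 0.4 to 0.61, 1.57-fold higher (adjusted p = 9.7e-05). H2afy rose 1.37-fold by its brightest probe (2.22 to 2.34 against 1.65 to 1.97) and 1.66-fold by a second. Its dimmest probe, at chr13:56189613-56189672 between the other 2, was above background on none of the Id1KO arrays and on all 4 Id1KO_Zrf1KD arrays, at −2.72 to −2.43, which is at least 4.78-fold higher. That bound sets the bright group's mean against the lowest signal called well above background on each dim array, or the probe's own where higher. In that probe Id1KO_Zrf1KD also exceeded WT (log2 1.65), whereas the other 2 stayed below WT, at −0.56 and −0.33. H2afx rose 1.33-fold. H2afy2 and H2afy3 were lower, by 1.28-fold and 1.19-fold.

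Set against WT, the knockdown cells kept part of the clustered difference. Of 47 clustered genes 34 were higher, 6 lower and 7 did not pass, with a median of 0.5, where 32.4% of all features were higher and 32.2% lower and the median was −0.02. At least 2-fold higher were 5 of the 47, against 2043 of all 22593 features. The 5 were Hist2h2aa1 at 3.27-fold, then Hist2h2ab, Hist1h2bg, Hist1h3a and Hist1h2bp. The Hist2h2aa2 probe, just before that of Hist2h2aa1, was 1.41-fold higher. With the deposited values Hist2h2ab and Hist1h2bg were at 0.47 and 0.61 on the log2 scale. Hist1h4h was 3.52-fold lower than WT, and 2.22-fold with the deposited values. Among the 13 variants 5 were higher and 3 lower. H3f3b, at 1.75-fold, stayed above WT while H3f3a differed from WT by 0.09 ± 0.08 (SE, adjusted p = 0.33). These are the brightest probes: the other H3f3a probe was higher than WT (0.28, adjusted p = 0.0075), and of the other H3f3b probes 1 was higher (0.79) and the dimmest did not pass (0.17, adjusted p = 0.057). The bright clustered genes gave the same median with both scalings in this comparison, 0.49 and 0.49.

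The changes were next set beside the place of the probe, with limits chosen after the values were known. A probe was called downstream where it held no stem-loop and began at base 500 or later of its transcript (800 for H1), and body otherwise. The 2 clustered probes without a genome position were left out of these classes. Of them 1 was higher and 1 lower in Id1KO, and on knockdown 1 was lower and 1 did not pass. The 8 stem-loop probes had a median of 1.83 in Id1KO minus WT, with 8 higher. The 31 body probes tested had 1.12, with 30 higher, and the 10 downstream probes 0.4, with 6 higher. On knockdown the medians were −1.04, −1.0 and −0.52, with 7, 31 and 6 lower. Of all 30885 probes kept, 13077 were higher in Id1KO and 12550 lower on knockdown. Downstream probes were also dimmer, with mean levels of −4.45 to 3.04, against −3.53 to 9.77 for body and −2.6 to 7.16 for stem-loop probes. The part of level in these differences was not tested. Of the stem-loop probes 2 reach far past the loop: Hist1h2ae has 48 of its 60 bases beyond it and Hist2h2aa1 38. The other 6 hold at most 6 bases beyond it, and 6 of 6 were higher in Id1KO (1.66 to 2.71) and lower on knockdown (−1.84 to −0.74). The 4 clustered genes that did not pass in Id1KO, Hist1h2ac, Hist1h2bc, Hist1h2be and Hist2h2be, were all read by downstream probes, and so were both genes that rose on knockdown. Hist1h2bg, with the largest rise in the main and quantile scalings, was read by a downstream probe too, and Hist1h4h, which fell, by a body probe.

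Promoters were looked up in RefSeq (GRCm38.p6), from 250 bases before to 50 after each gene's start; 56 of the 64 genes matched one. CCAAT on either strand was in 37 of 43 clustered promoters (86.0%), in 8 of 13 variant ones, and in 37.9% of the 27025 promoters of the table. It was in 9 of 9 H2B, 14 of 14 H2A, 6 of 6 H3 and 6 of 6 H1 promoters, and in 2 of 8 H4 promoters. The octamer ATTTGCAT, which POU factors such as Oct4 bind, was searched on both strands. It was in 5 of 9 H2B and 7 of 14 H2A promoters, and in none of the clustered H1, H3 and H4 promoters. Of the variant promoters 1 of 13 held it, that of H3f3b, and of all promoters 1.8%. TATAAA on the gene strand was in 24 of 43 clustered and 1 of 13 variant promoters, and in 8.9% of all. The 120 bases before the start are shown for the 2 H2B genes with the largest rises in the main scaling and for Hist1h4h, which fell in both comparisons; the 3 motifs are in capitals, and a match is a description of the letters only.
Hist1h2bg (chr13:23571280-23571399, plus strand): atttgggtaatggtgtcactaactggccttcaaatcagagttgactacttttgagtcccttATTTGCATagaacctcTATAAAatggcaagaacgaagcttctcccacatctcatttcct
Hist2h2bb (chr3:96269580-96269699, plus strand): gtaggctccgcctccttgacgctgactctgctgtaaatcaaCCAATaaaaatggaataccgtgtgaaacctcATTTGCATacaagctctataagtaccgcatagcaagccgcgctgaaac
Hist1h4h (chr13:23530924-23531043, plus strand): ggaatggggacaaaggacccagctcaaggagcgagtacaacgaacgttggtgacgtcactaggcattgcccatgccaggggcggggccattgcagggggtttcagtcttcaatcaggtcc

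Genes that make histone mRNA moved less, and not in the direction of the clustered genes. Of 17 tested, 3 were higher and 9 lower in Id1KO, with a median of −0.22. On knockdown 11 were higher and 3 lower, with a median of 0.34. Over all features 42.5% were higher and 29.6% lower in Id1KO, and 32.3% were higher and 39.8% lower on knockdown. Slbp arrays of WT read 1.75 to 1.91 and those of Id1KO 1.83 to 1.94, a difference of 0.06 ± 0.05 (SE). After knockdown they read 2.53 to 2.73, 1.65-fold higher than Id1KO (adjusted p = 3.7e-07). Sympk, a scaffold of the 3′ end cleavage complex, was 1.58-fold lower in Id1KO and 1.7-fold higher on knockdown. Cpsf3, the cleaving subunit, was 1.37-fold lower in Id1KO. Srrt, which joins cap-bound histone mRNA to processing, was 2.04-fold higher in Id1KO, and E2f1, a cell cycle transcription factor, 1.62-fold lower. Eri1, an exonuclease that trims histone mRNA ends, was 1.48-fold higher on knockdown and Lsm10, of the U7 particle that guides cleavage, 1.28-fold lower. Npat, an activator of histone gene transcription, was not tested, since its signal did not pass the limit on dim probes.

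Chaperones and exchange factors, which carry histones to and from DNA, were 12 higher and 7 lower of 28 in Id1KO, and 14 higher and 7 lower on knockdown. The Id1KO counts are near the shares over all features (42.5% higher, 29.6% lower), and 32.3% of all features were higher and 39.8% lower on knockdown. With quantile normalization those counts were 10 and 10, then 13 and 4. Asf1a, a carrier of H3 and H4, read −1.0 to −0.82 in Id1KO and −2.38 to −2.29 after knockdown, 2.63-fold lower (adjusted p = 1.8e-09). Oip5, which helps to load the centromere histone, rose 1.86-fold in Id1KO and fell 1.88-fold on knockdown. Nasp, a carrier of H3 and H4, rose 1.73-fold in Id1KO. Npm1 rose 1.56-fold and fell 1.43-fold in turn, both lost with quantile normalization (adjusted p = 0.06 and 0.73), and Set rose 1.45-fold. Spty2d1, a chaperone of H3 and H4, was 1.64-fold higher on knockdown. Cenpa, the centromere form of H3 whose name falls outside the rule, was 1.23-fold higher in Id1KO and 1.51-fold lower on knockdown; the first did not pass with the deposited values (adjusted p = 0.089).

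DNA replication genes, which act in the same phase of the cell cycle, showed no shared direction. Of 35 tested, 10 were higher and 13 lower in Id1KO (median −0.03), and 12 were higher and 14 lower on knockdown (median 0). The knockdown counts are near the shares over all features (32.3% higher, 39.8% lower). In Id1KO those shares were 42.5% higher and 29.6% lower. With quantile normalization the counts of the 35 genes were 10 and 17, then 13 and 13. Prim2, a primase subunit, was 20.3-fold higher in Id1KO (13.4-fold with normexp) and Rfc3, of the clamp loader, 1.9-fold. Rfc4, of the same complex, was 1.77-fold higher. On knockdown Prim1, the other primase subunit, was 1.67-fold lower and Orc6, of the origin recognition complex, 1.42-fold lower. The helicase subunit Mcm4 and the flap nuclease Fen1 were higher, by 1.57-fold and 1.77-fold.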

How the data were processed

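RNA of 12 mouse embryonic stem cell samples (3 groups of 4) was measured on one-colour Agilent arrays. The spot intensities are the processed signals that Feature Extraction 10.7.3.1 wrote, per the file headers. The authors also deposited a table of log2 values, used as an alternative; its background correction is not given in its header, and its values correlated with the scanner values at 0.957 or more on each array. Signals were divided by each array's 75th percentile and taken to log2. Control spots and outlier spots were left out. Of 55681 probes, 30885 were kept, being well above background on all 4 arrays of at least 1 group. Each gene name was read from its brightest probe, giving 22593 features in one limma 3.58.1 fit (R 4.3.3) of group means, with Benjamini-Hochberg adjustment at 0.05; limma gave every adjusted p. Arrays carry no read depth, so their number limits the precision. The fit was tested on simulated data.

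The members and lists were chosen with earlier results of these data known. Genes named were the variant genes, Slbp, Npat, Dnajc2 and Id1, the 3 highest and 3 lowest called clustered genes, the largest change of each core type, up to 4 genes of each list by adjusted p, and genes whose called probes differ in sign. Others, such as Hist2h2aa1, Hist1h2af, Hist2h2ac, Hist1h2ba and the genes at downstream probes, were picked after their values were seen. Quantile scaling, normexp, the deposited values, the filter on dim probes, the choice of probe, flagged spots, slide and replicate blocks and leaving out each array were tried.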

Additional observations from a re-analysis of the deposited data

Results flagged for a closer look

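In 3 groups of 4 arrays, 1 array lay far from the others of its group by Dixon's ratio, the gap to the nearest array divided by the group's range. H2afy2 on WT replicate 1 read 2.77 against 2.65 for the next (ratio 0.931). H3f3a on WT replicate 2 read 4.86 against 5.13 (ratio 0.833). Hist1h4m on Id1KO replicate 2 read 2.29 against 2.23 (ratio 0.84). Chance flags about 1 in 20 groups. Leaving out each array in turn, the change of H3f3a in Id1KO minus WT was 1.18 to 1.29 on the log2 scale and that of Hist1h4m 1.82 to 1.92.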

How the results depend on the processing

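Of the summary values, 341 stayed within the limits set and 27 moved. Median log2 changes are given for clustered then variant genes. In Id1KO minus WT they were 0.95 and 0.24 with quantile normalization, 1.03 and 0.41 with normexp, 0.82 and 0.17 with the deposited values and 1.12 and 0.28 without the limit on dim probes; for variants alone, 0.44 with signal on all 12 arrays and 0.28 with the mean of a gene's probes. In Id1KO_Zrf1KD minus Id1KO they were −0.81 and −0.19 (quantile), −0.54 and −0.17 (deposited), −0.84 and −0.35 (no limit) and −0.82 and −0.35 (every probe by itself); normexp and keeping flagged spots each gave −0.74 for clustered genes, and the probe mean −0.35 for variants. With signal on all 12 arrays, 1 clustered gene was higher on knockdown. Counting every probe, variants were 12 higher and 5 lower in Id1KO, 5 higher on knockdown, and 9 higher and 6 lower against WT. The knockdown change turned sign for H3f3b (0.16 quantile, 0.2 deposited), H2afj (0.01, quantile) and Hist1h2ac (−0.04, normexp), as did Hist1h1t in Id1KO (−0.21, flagged spots kept); the cause was not tested. With slide as a block 10 variants were lower on knockdown. With the replicate block, 41 clustered genes were higher in Id1KO and 42 lower on knockdown, as without it, and medians were 1.18 and −0.93. The numbers do not pair the samples: deviations of same-numbered arrays correlated at −0.44 to 0.4 (median −0.2), those of arrays on the same slide at 0.06 to 0.4 (median 0.24) and on other slides at a median of −0.18. Leaving out 1 array at a time gave 40 to 41 and 41 to 43. Dim probes such as Hist1h2ac limit what can be read near background.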
